A study of Mus musculus with 2 samples.

Results

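Canonical WNT signalling was followed through 10 genes that respond to it inside the cell, in embryonic mouse ureters cultured with or without NOGGIN. The genes were Sp5, Axin2, Lef1, Tcf7, Nkd1, Nkd2, Znrf3, Rnf43, Lgr5 and Apcdd1. Their probes were taken by gene name from the array annotation, and all 10 genes were on the array, with 16 of its 39429 probes. After dim probes were removed, 15 of these probes and all 10 genes remained, among 22311 genes or unnamed features.

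WNT ligands bind Frizzled and LRP receptors, which stops the destruction complex from degrading beta-catenin. Beta-catenin then enters the nucleus and joins DNA-binding proteins of the TCF/LEF family at target genes. Many of these targets act back on the pathway: AXIN2 rebuilds the destruction complex, NKD proteins bind Dishevelled, and ZNRF3 and RNF43 remove Frizzled from the cell surface. In the developing ureter, WNT ligands made by the epithelium act on the surrounding mesenchyme, which forms the smooth muscle and fibroblast layers.

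Both groups came from wild-type NMRI embryos of both sexes at stage E13.75. Whole ureters were dissected and kept on transwell membranes for 18 h, in medium with 10 µg/ml NOGGIN, a secreted protein that binds BMP ligands, or in medium without it. From each sample 200 ng of total RNA was labelled. A control and a NOGGIN sample shared each of 2 two-colour arrays, with the dyes exchanged between the arrays. The labels do not say how many ureters were pooled or whether the 2 pairs of samples came from separate litters. The p-values below thus cannot be taken to measure the spread between animals or litters. They rest on the gap between the 2 arrays, with each gene's variance drawn in the fit towards a value shared by all genes. The arrays read RNA of the whole ureter, in which fewer cells of a type and less RNA per cell cannot be told apart.

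All signed values are log2 ratios within an array, with the channel labelled NOGGIN as numerator and that labelled control as denominator. That direction follows the dyes in the labels and opposes the one in which the authors' deposited table reads if its titles (NOGGIN against control) are taken in order. Id1, a gene induced by BMP-SMAD signalling, was higher in the channel labelled NOGGIN, with log2 ratios of 2.21 on array 1 and 2.08 on array 2, and Id3, another such gene, had 1.43 and 1.47. For Id1 the authors' deposited table holds signed fold changes of -4.65 and -4.53. Were the dye labels to be exchanged, each sign below would turn and each size would stay. The 2 arrays differed from each other across the genome: 43.7% of all genes had the same sign on both, and 53 genes passed 1.5-fold in opposite directions. With the dyes exchanged, a dye effect left in a gene's ratio turns sign between the arrays. Opposite signs and each SD below thus mix dye effects with differences between the sample pairs, which cannot be told apart. Ifit1, an interferon-induced gene named here after its values were seen, had 0.61 on array 1 and 5.11 on array 2.

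The sequences below show where the 2 largest differences among the probes were read, and what lies before the start of 3 members. Array probes are 60 bases long, and the last 30 bases are given 5′ to 3′ for Sp5 and for both probes of Nkd2. Capitals mark AATAAA, the canonical polyadenylation signal, which 12.6% of all probes on the array contain. The Sp5 probe lies on mm9 at chr2:70315688-70315747, on the plus strand. The upstream Nkd2 probe lies at chr13:73957581-73957640 and the downstream one 805 bases further along the transcript at chr13:73956776-73956835, both on the minus strand. Gene models of mm9, and with them exon and UTR positions, were not used here.
Sp5 probe: gcgaacagcagttggcagcgtgaaAATAAA
Nkd2 upstream probe: cttggcatAATAAAgaattgtgcattctgt
Nkd2 downstream probe: ataaaacaccaatgaacataagcttttttc

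The 250 bases before the RefSeq start (assembly GRCm38.p6) were searched on both strands for CTTTGA, the core that TCF/LEF proteins bind, for its longer form CTTTGATC, for the variant core CTTTGT, and for GGCGCC, a GC-rich element bound by BMP-regulated SMADs. The promoter table held 7 of the 10 members, with 12 start sites; Znrf3, Lgr5 and Apcdd1 had no entry. Sp5 is shown as the member with the largest difference by its brightest probe, Nkd2 as the member whose probes disagreed and whose dimmer probe had a larger one, and Axin2 as the pathway target most often used as a readout. Capitals mark every match. The windows are chr2:70474673-70474922 (plus strand), chr13:73847632-73847881 (minus strand) and chr11:108920099-108920348 (plus strand).
Sp5 promoter: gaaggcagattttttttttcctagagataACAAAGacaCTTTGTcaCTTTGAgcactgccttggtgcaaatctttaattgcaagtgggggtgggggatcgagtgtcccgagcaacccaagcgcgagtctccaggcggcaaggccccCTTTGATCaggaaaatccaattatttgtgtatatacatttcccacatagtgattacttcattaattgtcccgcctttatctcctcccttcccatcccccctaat
Nkd2 promoter: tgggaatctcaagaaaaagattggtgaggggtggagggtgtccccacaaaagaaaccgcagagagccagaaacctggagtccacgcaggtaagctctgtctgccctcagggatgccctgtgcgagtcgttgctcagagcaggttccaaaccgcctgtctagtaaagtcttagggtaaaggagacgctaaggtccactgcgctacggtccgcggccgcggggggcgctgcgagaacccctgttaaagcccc
Axin2 promoter: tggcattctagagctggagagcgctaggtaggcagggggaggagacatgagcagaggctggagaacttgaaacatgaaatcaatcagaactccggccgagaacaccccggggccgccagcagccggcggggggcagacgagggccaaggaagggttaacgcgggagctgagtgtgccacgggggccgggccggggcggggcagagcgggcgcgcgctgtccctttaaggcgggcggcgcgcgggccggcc

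The Sp5 window held CTTTGA at 2 places, 204 and 104 bases before the start, and the nearer one is part of the CTTTGATC match. It also held CTTTGT or its reverse complement at 2 places, 221 and 212 bases before the start. Of all 32851 windows of this length in the table, 4544 held CTTTGA at least once and 449 (1.37%) at least 2 times, 0.801% held CTTTGATC, 16.5% held CTTTGT and 9.59% held GGCGCC. The windows of Axin2, Nkd1, Nkd2 and Rnf43 held none of these motifs, and those of Tcf7 held GGCGCC only. Of the 4 starts of Lef1, the last held CTTTGA at 2 places and CTTTGT at 1, and the third held none. The windows of the first 2 overlap, and the GGCGCC match they held is the same stretch of bases. A match describes the letters in the window and does not show binding, and its absence says only that the letters are not there.

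**Figure D1:**
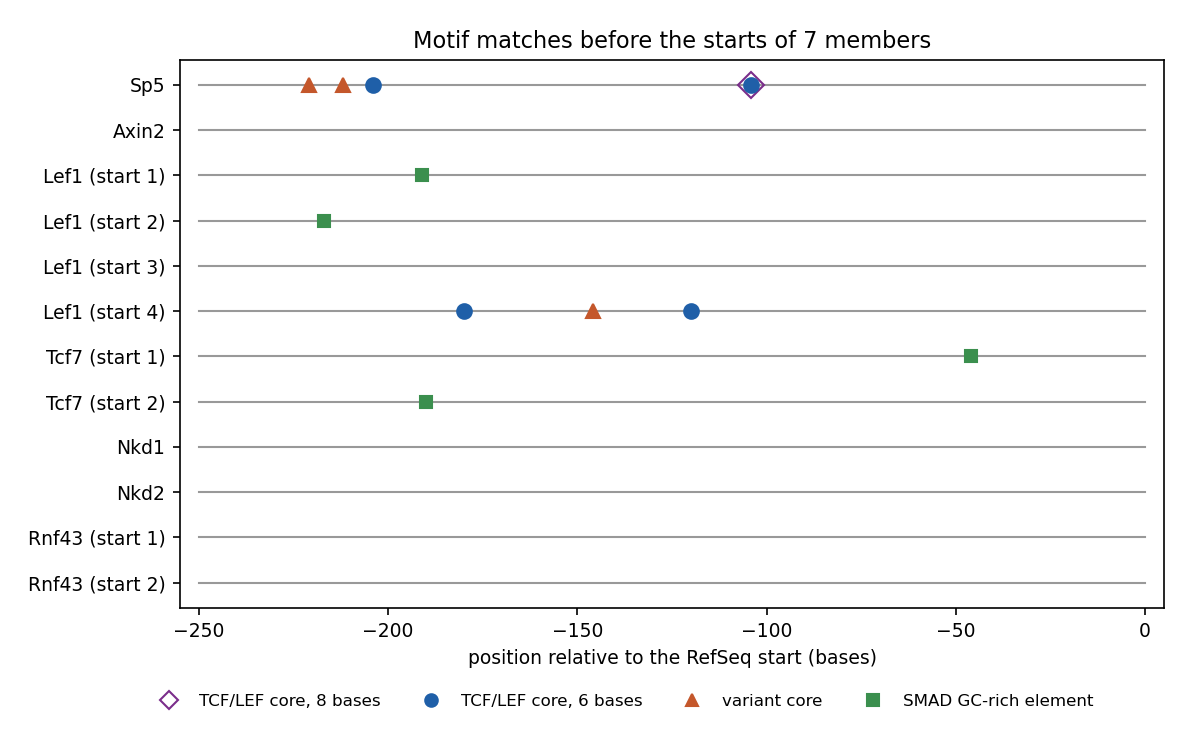
Matches of the searched motifs in the 250 bases before each RefSeq start of the 7 members in the promoter table; the x axis is the position relative to the start in bases and each line is 1 start. Sp5 is the only one of these windows with the 8-base TCF/LEF core, 104 bases before its start.

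Sp5 was the only member that on each array was at least 1.5-fold higher in the channel labelled NOGGIN, 2.43-fold on average, while no member was 1.5-fold lower on both arrays when each gene was read by its brightest probe. The other 9 members passed in neither direction. Over all genes 0.941% passed as higher, 1.25% as lower and 2.19% in either direction by this rule. In limma no member had an adjusted p under 0.05, nor did any gene of the array (0%). At an unadjusted p under 0.05 in that test there were 2 members, Sp5 and, at 0.0498, Lef1, against 6.04% of all genes. The median log2 ratio of the 10 members, with the 2 arrays averaged, was -0.13 and that of all genes was -0.01. By single arrays the medians were 0.12 (members) and 0.02 (all genes) on array 1, and 0.05 and -0.05 on array 2. The negative sign of the members' median thus depended on averaging the 2 arrays. Of the 10 members, 4 had the same sign on both arrays (Sp5, Lef1, Nkd1 and Rnf43) and 6 did not, against 43.7% of all genes with the same sign. The members were thus near the share of all genes in this respect.

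**Figure D2:**
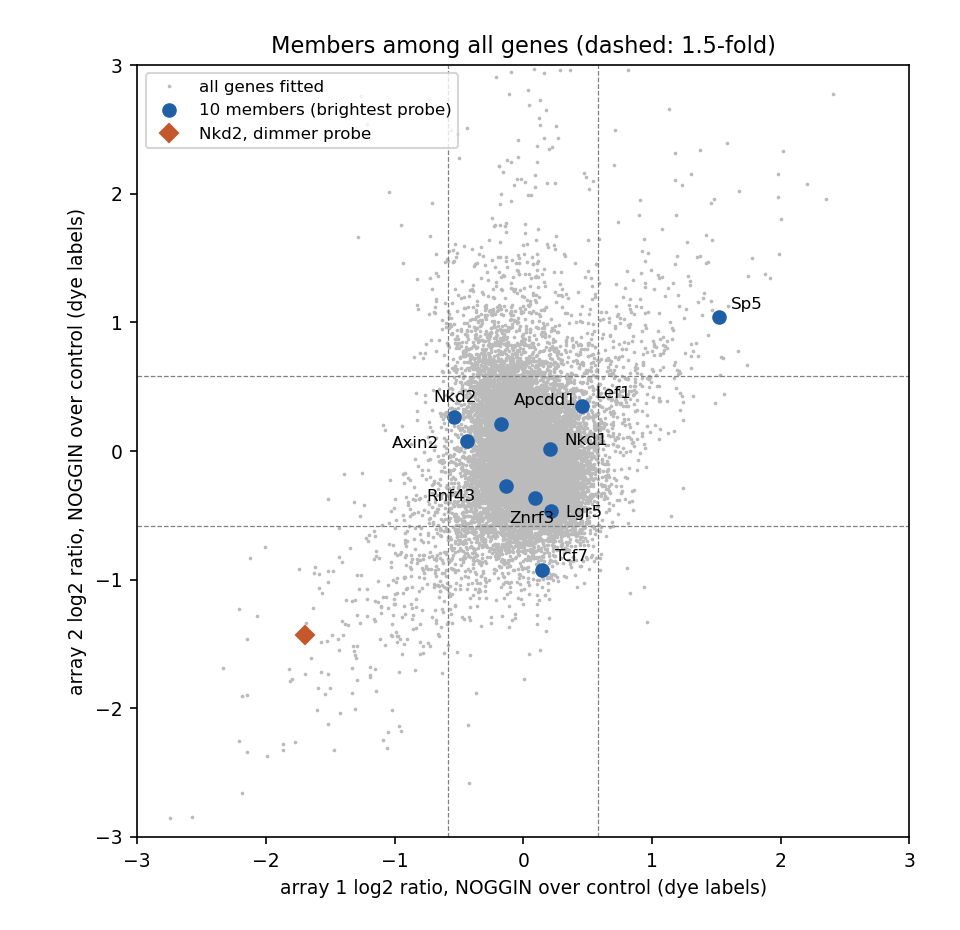
Log2 ratio, labelled NOGGIN over labelled control, on array 1 (x axis) and array 2 (y axis) for all 22311 genes (grey), the 10 members by their brightest probe (blue) and the dimmer Nkd2 probe (orange diamond); dashed lines mark 1.5-fold, and 28 genes lie outside the axes. Sp5 (1.52 and 1.04) lies in the upper right, the dimmer Nkd2 probe (-1.70 and -1.43) in the lower left, and the other members lie inside 1.5-fold on at least 1 array.

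Among the transcription factors, Sp5 is a zinc-finger protein of the SP/KLF family and a direct target of beta-catenin that in turn dampens WNT target genes. Its normalized log2 intensities were 8.66 in control 1 and 10.18 in NOGGIN 1 on array 1, and 8.84 in control 2 and 9.88 in NOGGIN 2 on array 2. Within each array the NOGGIN sample was the higher one. The log2 ratios were 1.52 and 1.04, with a mean of 1.28 ± 0.34 (SD, n = 2) and a 95% interval of 0.80 to 1.76 from the fit.

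The difference in Sp5 was visible in the scanned signals before any correction. On array 1, where NOGGIN was the green channel, the 4 spots read 1398 to 1420 for NOGGIN over a local background of 27.0 to 32.0, and 251.5 to 270.5 for control over 60.0 to 72.0. On array 2, with the dyes exchanged, NOGGIN in red read 766 to 835 and control in green 568 to 633. NOGGIN was the brighter channel on both arrays, by a wider margin in green, and normalization for dye narrowed the margin on array 1 and widened it on array 2. After normalization all 7 spots used lay above 0: the 3 on array 1 at 1.53 or just under, and the 4 on array 2 from 0.98 to 1.15. The spread between spots of 1 array was smaller than the gap between the arrays.

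In limma's test Sp5 had an unadjusted p of 0.000823 and an adjusted p of 0.14 over all genes, so it did not pass. It ranked 131st of 22311 genes by p, 95th from the highest log2 ratio, and 53rd among the 210 genes that passed 1.5-fold as higher. The authors' deposited table gives its probe signed fold changes of -3.41 and -2.28, larger than the 2.87-fold and 2.06-fold found here on the same arrays, and with the same sign as Id1. The genes whose pair of log2 ratios lay nearest to that of Sp5, by Euclidean distance over the 2 arrays, were Maob (1.46 and 1.10), which encodes monoamine oxidase B, the hedgehog ligand gene Ihh (1.59 and 1.13) and Enpp2 (1.39 and 1.06), which encodes autotaxin.

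Lef1 and Tcf7 encode DNA-binding partners of beta-catenin and are themselves induced by WNT signals in many tissues. Lef1, by its brighter probe, read 10.41 in control 1, 10.87 in NOGGIN 1, 10.28 in control 2 and 10.63 in NOGGIN 2 on the log2 intensity scale. Its log2 ratios were 0.46 and 0.35, with a mean of 0.41 ± 0.08 (SD, n = 2), or 1.32-fold. All 8 spots were above 0. Its unadjusted p was 0.0498 and its adjusted p was 0.827 in limma's test. With every kept probe fitted as its own feature, limma gave the same probe an unadjusted p of 0.0554 and an interval of -0.01 to 0.82. The dimmer Lef1 probe, whose 60 bases are placed over a span of 18162 bases on mm9, had 0.58 on array 1 and -0.18 on array 2, so the 2 probes differed in sign on array 2.

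Tcf7 had opposite signs on the 2 arrays with both of its probes. The brighter one read 12.10 in control 1, 12.25 in NOGGIN 1, 12.59 in control 2 and 11.66 in NOGGIN 2, which gave log2 ratios of 0.15 and -0.92. On array 2 alone Tcf7 was 1.89-fold lower in the channel labelled NOGGIN, and its 4 spots there ran from -1.06 to -0.70. The dimmer probe repeated the signs with 0.13 and -0.45. The mean of -0.39 ± 0.75 (SD, n = 2) was smaller than its spread, with a 95% interval of -1.09 to 0.32.

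**Figure D3:**
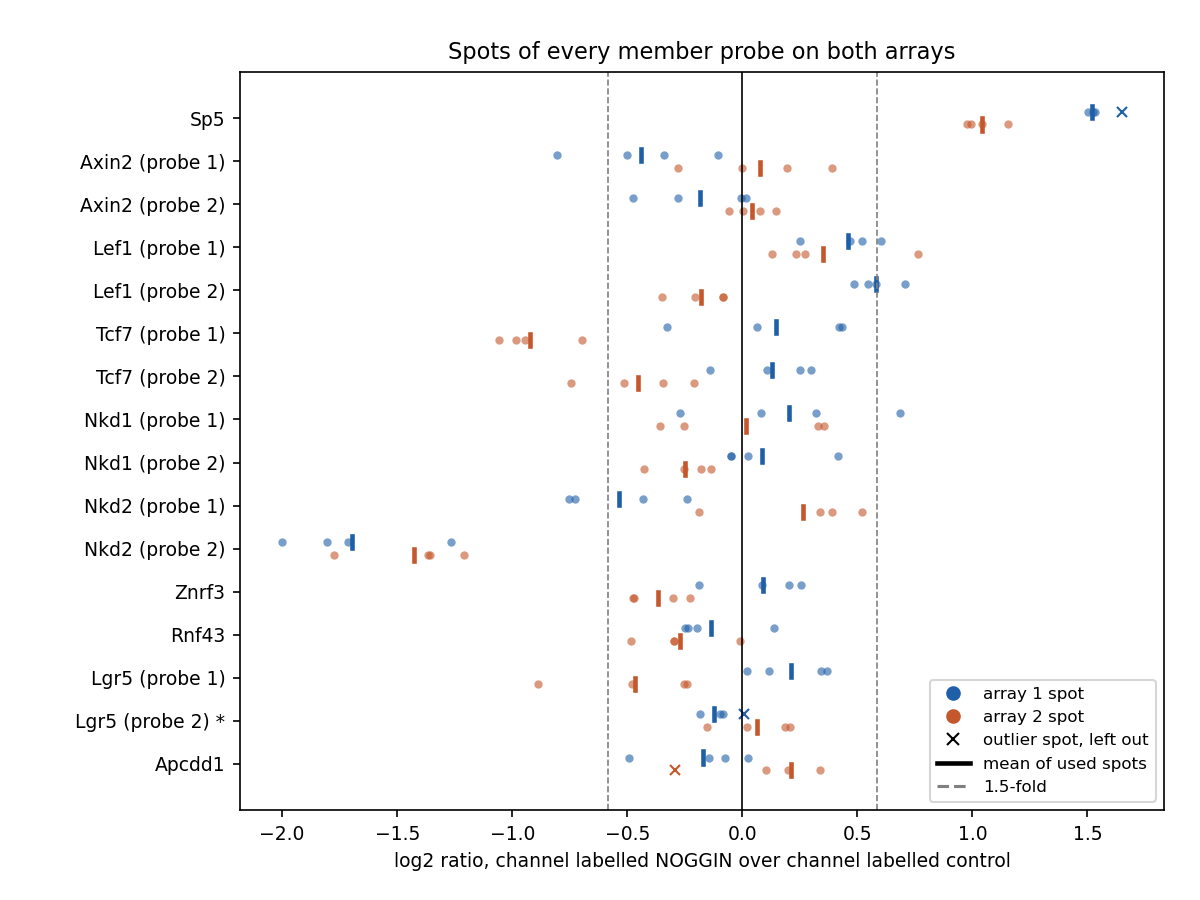
Log2 ratio, labelled NOGGIN over labelled control, for every spot of the 16 member probes, on array 1 (blue) and array 2 (orange); bars are means of the spots used, crosses are outlier spots left out, dashed lines mark 1.5-fold, and probe 1 of a gene is the brighter. The asterisk marks the Lgr5 probe not well above background; only Sp5 and the dimmer Nkd2 probe have all spots beyond 1.5-fold on both arrays.

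Axin2, which encodes a scaffold of the destruction complex and is a general WNT target, showed no shared direction. Its log2 intensities were 11.21 in control 1, 10.77 in NOGGIN 1, 10.97 in control 2 and 11.05 in NOGGIN 2. The samples of the 2 groups overlapped. The log2 ratios were -0.44 and 0.08, with a mean of -0.18 ± 0.36 (SD, n = 2) and a 95% interval of -0.67 to 0.31, which leaves room for a change of up to that size in either direction. A second, dim probe gave -0.19 and 0.04; it was well above background in 2 of its 4 spots in NOGGIN 2 and in 3 of 4 in control 1.

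The NKD proteins bind Dishevelled and restrain WNT signalling, and Nkd1 and Nkd2 differed from each other by what their probes read. Nkd1 lay within 1.5-fold with both probes. Its brighter probe read 14.43 in control 1, 14.63 in NOGGIN 1, 14.51 in control 2 and 14.53 in NOGGIN 2. The mean log2 ratio was 0.11 ± 0.13 (SD, n = 2), and its dimmer probe gave -0.08 ± 0.24.

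Nkd2 was read by 2 probes that gave different results. The downstream probe, the brighter one and therefore the value of the gene, read 13.51 in control 1, 12.97 in NOGGIN 1, 13.21 in control 2 and 13.47 in NOGGIN 2. Its log2 ratios had opposite signs, -0.54 and 0.27, with a mean of -0.14 ± 0.57 (SD, n = 2). The upstream probe, with AATAAA in its last 30 bases as shown above, read 10.94 in control 1, 9.24 in NOGGIN 1, 10.80 in control 2 and 9.38 in NOGGIN 2. With this probe the NOGGIN sample was the lower one on each array.

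The upstream Nkd2 probe had log2 ratios of -1.70 and -1.43, a mean of -1.56 ± 0.19 (SD, n = 2), or 2.95-fold lower in the channel labelled NOGGIN. All 8 spots were below 0, with -1.27 the one nearest to 0 on array 1 and -1.21 on array 2. In the scanned signals of array 2, control in green read 2427 to 2515 and NOGGIN in red 424.2 to 635.7; on array 1, control in red read 963 to 1521 and NOGGIN in green 675 to 792. The probe was well above background in all 4 samples. With every kept probe fitted as its own feature, an analysis chosen after the data were seen, limma gave it an unadjusted p of 0.000197 and an adjusted p of 0.135, and no probe of the array passed 0.05 (0%, against 5.34% at an unadjusted p under 0.05). Of the 15 kept member probes, the Sp5 probe was 1.5-fold higher on both arrays and this one lower, against 0.85% and 1.07% of all kept probes, and it had the 40th lowest mean of 29638.

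Of 5590 named genes with several kept probes, 3 had a mean gap at least as large between the brightest and another probe: Nkd2 (1.43), Irs4 and Mx2, the last 2 named after their values were seen. In Irs4 and Mx2 the brightest probe was the one that departed from 0, with means of -2.23 and 1.81 against 0.02 and 0.13 for the dimmer probe. Those dimmer probes had low mean log2 intensities, 7.29 in Irs4 and 6.43 in Mx2. In Nkd2 it was the dimmer probe that departed, at a mean log2 intensity of 10.09. In 34 genes (0.608%) another kept probe passed 1.5-fold while the brightest did not. The neighbouring gene Slc12a7, which lies on the opposite strand with a probe 2971 bases beyond the downstream Nkd2 probe, had mean log2 ratios of -0.23 and -0.14 with its 2 probes. The authors' deposited table shows the same split, with signed fold changes of 3.25 and 3.18 for the upstream Nkd2 probe and 1.29 and -1.13 for the downstream one. With the kept probes of a gene averaged, Nkd2 had a mean log2 ratio of -0.85 and an adjusted p of 0.288 in limma's test. Which transcripts each probe reads in these samples was not tested.

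**Figure D4:**
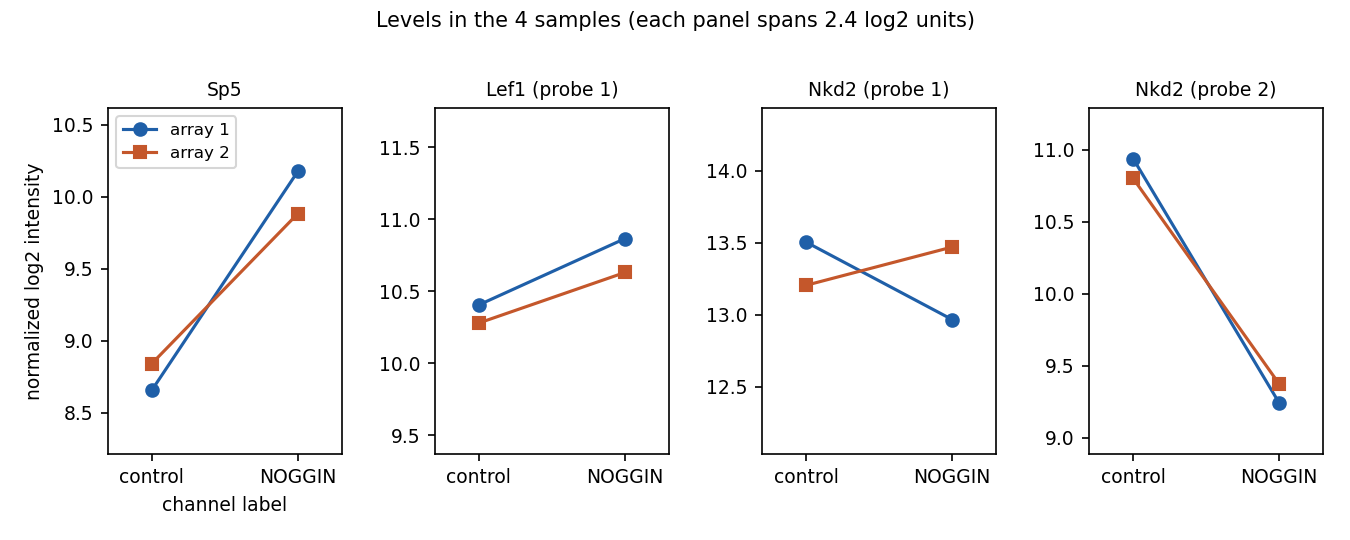
Normalized log2 intensity in the channel labelled control and the channel labelled NOGGIN, with a line per array (blue, array 1; orange, array 2), for Sp5, the brighter Lef1 probe, and the downstream (probe 1) and upstream (probe 2) Nkd2 probes; every panel spans 2.4 log2 units, and levels of different probes are not comparable. Both lines slope up for Sp5 and Lef1 and down for the upstream Nkd2 probe, and they cross for the downstream one.

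The last 4 members act on receptors at the cell surface. Rnf43 encodes a ubiquitin ligase that removes Frizzled, and its ratios were small and negative on both arrays. It read 12.84 in control 1, 12.70 in NOGGIN 1, 13.05 in control 2 and 12.78 in NOGGIN 2, with a mean log2 ratio of -0.20 ± 0.10 (SD, n = 2) and an unadjusted p of 0.259 in limma's test. The 95% interval of Rnf43 ran from -0.61 to 0.20. Its close relative Znrf3 was barely measured: its probe read 6.62 in control 1, 6.71 in NOGGIN 1, 6.92 in control 2 and 6.55 in NOGGIN 2, and it was well above background in 1 of 4 spots in control 1 and in 0 of 4 in NOGGIN 2, the 2 samples in the red channel. Each group thus had 1 array that measured Znrf3, and its log2 ratios were 0.09 and -0.37, with a 95% interval of -0.61 to 0.33.

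Lgr5 encodes an R-spondin receptor that counteracts ZNRF3 and RNF43. It read 9.13 in control 1, 9.34 in NOGGIN 1, 9.28 in control 2 and 8.82 in NOGGIN 2. The log2 ratios of 0.21 and -0.47 had opposite signs, with a mean of -0.13 ± 0.48 (SD, n = 2). Its other probe was not well above background in any of the 4 samples. Apcdd1, a membrane protein that inhibits WNT signalling, had the mean nearest to 0 of the members. It read 12.51 in control 1, 12.34 in NOGGIN 1, 12.47 in control 2 and 12.68 in NOGGIN 2, for log2 ratios of -0.17 and 0.21 and a mean of 0.02 ± 0.27. The interval of Apcdd1 ran from -0.43 to 0.47.

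The rest of the WNT pathway was described with 6 lists of 64 genes, of which 63 passed the filter on dim probes (Sp9 did not). By the 1.5-fold rule 1 was higher and 2 were lower, against 0.941% and 1.25% of all genes, none passed an adjusted p of 0.05, and 8 had an unadjusted p under 0.05 in limma's test, against 6.04% of all genes. Of the 18 receptors and co-receptors, Fzd9 was the only one to pass 1.5-fold, with 1.53 and 0.59 (mean 1.06 ± 0.67, SD, n = 2; adjusted p = 0.364), and the median of the list was -0.12. Of the 4 R-spondins, the ligands of LGR receptors, Rspo1 passed as lower with -0.70 and -1.05 (mean -0.88 ± 0.25; adjusted p = 0.247). Rspo2 had -0.90 and -0.39.

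None of the 11 genes of the destruction complex and Dishevelled and none of the 11 nuclear partners passed 1.5-fold. The largest sizes there were -0.28 ± 0.06 (SD, n = 2) for the kinase gene Gsk3b and -0.33 ± 0.12 for the co-repressor gene Tle1, while Ctnnb1, which encodes beta-catenin itself, had 0.03 ± 0.12. Among 12 other genes known to be induced by WNT signals, Tnfrsf19, which encodes a receptor of the TNF family, passed as lower with -1.41 and -1.32 (mean -1.37 ± 0.06; adjusted p = 0.102). The other 11, Ccnd1 (0.09), Myc (-0.37) and Notum (0.17) among them, did not. Of these, Fgf9 (-0.55) and Ascl2 (0.50) had the same sign on both arrays, with unadjusted p of 0.0178 and 0.0248 in limma's test. None of the 7 measured relatives of Sp5 in the SP family passed 1.5-fold on both arrays. Sp6 had the largest mean of that family, 0.60 ± 0.86, with -0.01 on array 1 and 1.2 on array 2, and Sp8, also a developmental SP factor, had -0.14 ± 0.17.

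**Figure D5:**
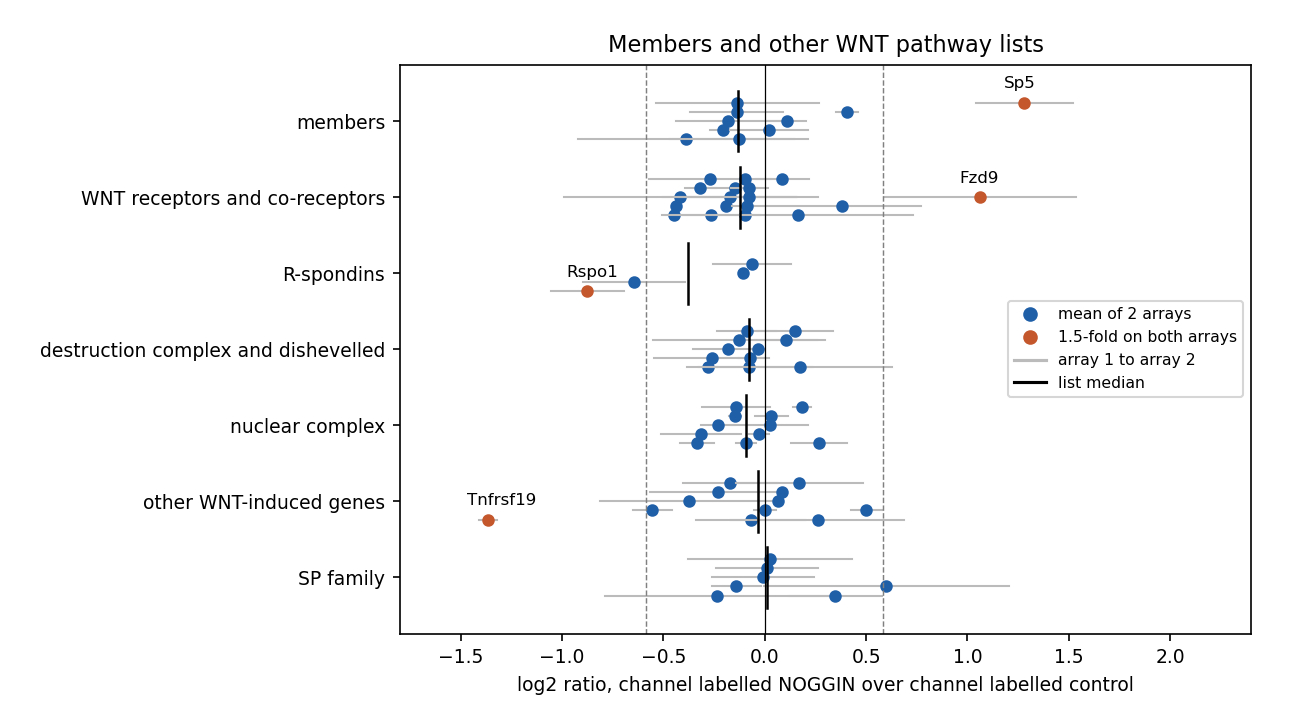
Mean log2 ratio, labelled NOGGIN over labelled control, for each measured gene of the members and 6 further WNT pathway lists; grey lines join the values of the 2 arrays, black bars are list medians, dashed lines mark 1.5-fold, and orange points passed 1.5-fold on both arrays. Sp5, Fzd9, Rspo1 and Tnfrsf19 are the genes that passed, and the list medians lie between -0.38 and 0.01.

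Markers of the tissue layers were read on the same arrays, and none passed an adjusted p of 0.05. All 4 ureteric mesenchyme markers, all 4 smooth muscle markers and all 8 urothelium markers passed the filter. All 4 nephron progenitor markers and all 4 of ureteric bud tip and collecting duct passed too, so passing the filter does not identify the tissue. Smooth muscle markers had negative means in 4 of 4 genes, with Tagln (-0.98) and Cnn1 (-0.80) lower by the 1.5-fold rule (median of the list -0.80), and their summed linear intensity was 246569 and 208011 in the controls against 102312 and 154915 in the NOGGIN samples. Adventitial fibroblast markers had negative means in 4 of 4 (median -0.40). Ogn passed 1.5-fold as lower with -1.68 and -1.34, while Dpt, Dcn and Lum did not pass, with means of -0.55, -0.24 and -0.23. The summed intensity of the 4 was 253304 and 272364 in the controls against 208559 and 209036 in the NOGGIN samples. Of the ureteric mesenchyme markers, Tbx18 passed as higher (0.77) and Bmp4 as lower (-1.02). Urothelium markers had none past 1.5-fold and a median of 0.18, with sums of 53004 and 64368 against 75247 and 64917. Their means ran from -0.65 for Krt5 to 0.83 for Upk1a. No marker of endothelium, macrophages, nephron progenitors, red blood cells or neural crest and glia passed 1.5-fold on both arrays. The nephron progenitor marker Crym had 0.47 and 2.16 (median of its list -0.03). The macrophage marker Adgre1 had 0.11 and 1.27 (median of its list -0.24). In the list of ureteric bud tip and collecting duct (median -0.36), Wnt11 (-0.82) and Wnt9b (-0.68) passed as lower. Ret (0.25) and Aqp2 (-0.04) in that list did not pass. The part of these shifts in the values of Sp5, Nkd2 or any other member was not tested.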

How the data were processed

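Scans were quantified in Agilent Feature Extraction 10.7.3.1, as the submitters' processing notes name it. The deposited scanner files give spot intensity per channel, with coordinates on mm9, per the file headers. The authors also deposited a signed score per probe, which against the scanner values was a linear fold change of control over NOGGIN by the dye labels; no source used here names its normalization.

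Mean signals were corrected by normexp (offset 50) and loess (limma 3.58.1, R 4.3.3). Control spots and outlier spots (3.36% and 3.09%) were dropped; none was saturated. A probe's value is the mean of its 4 spots. It was kept if, on both arrays, over 50% of spots in 1 or both channels exceeded background clearly, and the brightest probe stood for a gene. On array 1, 76.9% of probes were above background in the NOGGIN channel and 65.3% in the control channel; on array 2, 66.4% and 76.4%. The number of arrays limits the precision. Both were on 1 slide. Intensities of single samples are after Aquantile scaling and keep dye effects. Names were updated by accession from RefSeq's GRCm38.p6 table (28328 probes matched; no coordinates taken); members kept the file's name.

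The fit had 1 coefficient for NOGGIN over control and no term for dye, with 1 residual degree of freedom. Moderation of the variances in limma added 4.35 prior degrees of freedom, estimated from all genes. P-values and intervals thus rest more on that shared variance than on a gene's own 2 values. P-values are two-sided with Benjamini-Hochberg adjustment over all 22311 features; intervals are 95% from that fit. The members and lists were chosen with earlier results of these data known. The rule for named genes took all members, genes of the pathway lists past 1.5-fold and the largest of each, Id1, Id3, and the 3 genes nearest to Sp5; the markers are a separate list. Ctnnb1, Ccnd1, Myc, Notum, Fgf9, Ascl2, Rspo2, Sp8, Slc12a7, Ifit1, Irs4 and Mx2 fall outside it and were named after their values were seen. Figures used matplotlib 3.10.9.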

Additional observations from a re-analysis of the deposited data

How the results depend on the processing

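Sp5 kept its direction and its place past 1.5-fold in every setting tried. With both arrays its mean log2 ratio ran from 1.26 to 1.48 and its adjusted p in limma's test from 0.056 to 0.642. On single arrays its ratio was 1.52 and 1.04. The upstream Nkd2 probe stayed between -1.70 and -1.43, single arrays included. No setting brought a member past an adjusted p of 0.05. Over all genes, where limma called 0 (and 1348 without adjustment), a trended, robust variance called 141, median centring 114, a filter on both channels 100, uncorrected signals 35 and the inclusion of outlier spots 22, and a looser threshold of 0.1 called 43. The genes past 1.5-fold, 210 higher and 278 lower, became 390 and 450 on processed signals and 58 and 91 at 2-fold; on single arrays they ran from 491 to 1373 higher and from 470 to 1258 lower. Members lower by the rule ran from 0 to 1 on single arrays, the 1 being Tcf7 on array 2.

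Members near 0 turned sign. Apcdd1 had -0.0159 after median centring, -0.0185 from the scanner's processed signals, -0.0427 if outlier spots stayed in and -0.0546 in the authors' deposited values. By the other probe of a gene, a comparison chosen after seeing the data, Nkd1 became -0.0815 and Nkd2 -1.56. With all kept probes of a gene averaged, Nkd2 moved from -0.14 to -0.849 (adjusted p = 0.288). On single arrays the ratios ran from -0.17 to 0.21 for Apcdd1, -0.44 to 0.0761 for Axin2, -0.54 to 0.27 for Nkd2, -0.47 to 0.21 for Lgr5, -0.92 to 0.15 for Tcf7 and -0.37 to 0.089 for Znrf3. Where both channels had to be above background, Znrf3 was removed. Other causes were not tested. The array ratio is itself the pairing of a control with a NOGGIN sample. Signal over background limits Znrf3 and the second probes of Axin2 and Lgr5.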
